A study of Mus musculus with 11 samples.

Results

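The genes described here are the 35 whose symbol is Cdh or Pcdh followed by a number, with or without an x at the end. They were chosen by symbol alone, are 35 of the 48440 genes of the deposited count table, and the same 35 are found among the 32285 genes of the single-cell matrices. By family they comprise 5 type I classical cadherins, 13 type II classical cadherins, 5 cadherins usually set apart from the classical ones (Cdh13, Cdh16, Cdh17, Cdh23 and Cdh26), 4 delta-1 protocadherins, 5 delta-2 protocadherins and 3 protocadherins of neither delta group (Pcdh12, Pcdh15 and Pcdh20). The set is therefore wider than classical cadherins and delta protocadherins, and clustered protocadherins are not in it.

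The study asked what the RNA-binding protein Syncrip does in neural progenitor cells (NPCs) of the developing mouse neocortex, by comparing wild-type (WT) with Syncrip conditional knockout (cKO) material at E14.5. RNA-seq covered 3 WT and 3 cKO cultures of primary NPCs, grown in vitro from E14.5 embryos. Droplet scRNA-seq covered the dorsal telencephalon of 1 WT and 1 cKO embryo. In the study's mice, loxP sites flank exons of Syncrip and Emx1-Cre, which acts in progenitors of the dorsal telencephalon, removes them, so cells born in the ganglionic eminences (GE) lie outside the Cre lineage. The labels name neither the Cre nor the embryos of each culture, so the p-values below measure the spread between these cultures, which may be technical. The 3 LACE-seq samples were not analysed here.

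Cadherins are calcium-dependent adhesion proteins that bind cadherins of the neighbouring cell. The tails of classical cadherins hold beta-catenin and p120-type catenins, and alpha-catenin links them to actin, which in the ventricular zone keeps progenitors attached to each other at the apical surface. Protocadherins share the extracellular repeats, lack the catenin-binding tail, and are known for combinatorial expression across brain regions and neuron types, as are the type II cadherins.

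Syncrip itself was counted at 78.0, 79.8 and 79.9 CPM (counts scaled to a library of 1e+06 with TMM factors) in the WT cultures and at 90.3, 88.7 and 81.5 CPM in the cKO cultures. It did not pass the test (log2 fold change 0.13, edgeR adjusted p = 0.18). The count covers the whole gene, so it does not check the deletion of a few exons. In the cortex the UMIs come from 3′ libraries and, counted per gene, do not check it either. Syncrip stood at 315 CPM in WT against 324 CPM in cKO apical progenitor-like (AP-like) cells. In all GE-like cells it stood at 309 and 264 CPM (log2 ratio -0.23, counting interval -0.30 to -0.15).

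The 6 culture libraries held 16962903 to 22708400 counts. In the count table the length of each of the 48440 genes equals its whole span, and all of the 2025 genes of at least 2000 bases that lie within a gene of the other strand, and all of the 1465 within a gene of the same strand, are at 0 in every culture, against 20.7% of the 24322 that lie in no other gene. The counts thus behave as reads over whole spans, introns included, with reads shared by overlapping genes left out and without strand. This bears on the members: Cdh15, a cadherin of muscle, lies wholly within Gm20388 and is listed at 0 in every culture. Genes of the other strand cover 31.0% of the span of Pcdh8 and 33.3% of that of Pcdh10, and other genes cover 10.0% of that of Pcdh15. Levels of different genes were not compared with each other in the cultures for this reason.

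Of the 35 members, 25 had enough counts to be tested in the cultures. In cKO cultures 9 rose and 6 fell at an adjusted p below 0.05, and 10 passed in neither direction. Cultures differed widely: over all 14432 genes tested, 39.5% were called, 19.7% higher and 19.8% lower, against 15 of the 25 members, and no test of that difference was made. The median log2 fold change was 0.10 over the tested members and 0.00 over all tested genes. Ranges did not overlap for 16 of the 25, with 10 members higher and 6 lower in every cKO culture than in any WT culture, where 25.7% and 24.7% of all tested genes were. In bulk RNA, fewer cells of a type and less RNA per cell cannot be told apart.

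The members that rose most were Pcdh11x, Pcdh15 and Cdh4, each at more than its WT level by over 1 on the log2 scale, and those that fell most were Pcdh20, Pcdh18 and Pcdh8. Start regions (RefSeq, GRCm38.p6, 250 bases before to 50 after a transcript start) are shown for the 4 of these 6 that have an entry, because they moved furthest, so that genes that rose and fell can be set side by side. Capitals mark matches on either strand to CAGGTG, the E-box that Zeb and Snail repressors of cadherin genes bind, and which reads CACCTG on the other strand, to TATAAA, or to the GC box GGGCGG.

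Pcdh15, which rose, chr10:73821617-73821916, plus strand: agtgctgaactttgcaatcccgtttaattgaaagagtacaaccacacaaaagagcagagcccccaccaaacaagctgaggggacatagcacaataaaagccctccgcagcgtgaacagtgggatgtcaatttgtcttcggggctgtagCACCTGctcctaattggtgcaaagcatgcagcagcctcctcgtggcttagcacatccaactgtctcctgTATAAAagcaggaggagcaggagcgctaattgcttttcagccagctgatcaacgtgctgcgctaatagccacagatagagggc
Pcdh18, which fell, chr3:49757267-49757566, minus strand: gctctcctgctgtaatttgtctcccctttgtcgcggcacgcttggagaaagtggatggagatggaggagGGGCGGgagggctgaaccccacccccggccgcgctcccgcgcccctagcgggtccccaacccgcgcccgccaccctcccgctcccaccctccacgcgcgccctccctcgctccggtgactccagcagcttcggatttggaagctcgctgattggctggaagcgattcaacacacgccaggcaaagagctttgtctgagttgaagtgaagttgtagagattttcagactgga
Pcdh20, which fell, chr14:88471347-88471646, minus strand: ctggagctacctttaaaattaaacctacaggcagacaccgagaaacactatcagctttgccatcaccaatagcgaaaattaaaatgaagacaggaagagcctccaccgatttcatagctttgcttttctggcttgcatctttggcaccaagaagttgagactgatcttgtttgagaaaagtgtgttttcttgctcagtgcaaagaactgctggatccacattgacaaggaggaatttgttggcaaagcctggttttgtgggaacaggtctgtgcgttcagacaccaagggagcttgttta
Pcdh8, which fell, chr14:79771263-79771562, minus strand: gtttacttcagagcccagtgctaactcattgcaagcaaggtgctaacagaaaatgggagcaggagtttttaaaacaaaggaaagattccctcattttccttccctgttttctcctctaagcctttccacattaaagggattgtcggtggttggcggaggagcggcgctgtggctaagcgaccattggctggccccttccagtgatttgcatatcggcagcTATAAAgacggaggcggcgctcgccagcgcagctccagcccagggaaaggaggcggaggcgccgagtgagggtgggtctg

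The Pcdh15 window lies at an internal start, 722525 bases from the 5′ end of the span in the count table, and holds both a CACCTG and a TATAAA. The Pcdh8 window holds TATAAA, the Pcdh18 window GGGCGG, and the Pcdh20 window, with 4 CpG dinucleotides and 43.7% GC, none of these letters. Of all 32851 windows, 20.2% hold CAGGTG, 13.6% TATAAA, 35.7% GGGCGG and 7.15% CACGTG, another E-box searched. Among the 22 members with a window outside chromosome 18, CAGGTG occurred in 3, TATAAA in 2, GGGCGG in 9 and CACGTG in 1.

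Type I classical cadherins moved apart from each other. Cdh2 (N-cadherin), the main cadherin of progenitor junctions, stood at 271, 251 and 275 CPM in WT and at 269, 264 and 260 CPM in cKO cultures. Its groups overlapped, and it was not called (log2 fold change -0.01 ± 0.07 SE, edgeR adjusted p = 0.958). Cdh4 (R-cadherin), a type I cadherin of subsets of neurons and progenitors, stood at 61.9, 63.7 and 50.4 CPM in WT and at 115, 126 and 120 CPM in cKO cultures. All cKO cultures were above all WT cultures, and Cdh4 rose by 1.04 ± 0.09 (edgeR adjusted p = 1.57e-06). Cdh1 (E-cadherin), the epithelial cadherin, was too low to be tested, with 1, 2 and 1 counts in WT and 18, 5 and 11 in cKO cultures. Those groups did not overlap either, yet the level stayed under 1 CPM everywhere. Cdh3 had 0 to 4 counts per culture.

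Of the 13 type II cadherins, which guide sorting and connectivity of neurons, 10 were tested, 4 rose and 2 fell. Over all tested genes 19.7% rose and 19.8% fell. Cdh10 stood at 88.2, 65.7 and 77.1 CPM in WT and at 125, 116 and 108 CPM in cKO cultures (log2 fold change 0.60 ± 0.10, edgeR adjusted p = 0.000357). Cdh22 stood at 11.9, 17.2 and 13.03 CPM in WT and at 19.3, 24.0 and 21.3 CPM in cKO cultures (0.62 ± 0.14, edgeR adjusted p = 0.00365). Cdh24 stood at 9.01, 9.97 and 10.8 CPM in WT and at 14.1, 15.6 and 13.98 CPM in cKO cultures (0.55 ± 0.13, edgeR adjusted p = 0.0045). In each of these genes every cKO culture exceeded every WT culture. Cdh6, a cadherin of early cortical regions, had the least margin, at 21.2, 22.8 and 18.9 CPM in WT against 26.7, 26.1 and 25.6 CPM in cKO cultures. It rose by 0.32 ± 0.10 (edgeR adjusted p = 0.0233), and this call was lost without WT replicate 3 or without any 1 of the cKO cultures (adjusted p 0.0639 to 0.0921).

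Among the type II cadherins that fell, Cdh11, known from mesenchyme and from neurons, went from 189, 182 and 170 CPM in WT to 131, 130 and 135 CPM in cKO cultures (log2 fold change -0.45 ± 0.07, edgeR adjusted p = 0.000317). The groups were well apart. Cdh19, known from the Schwann cell and glial lineage, stood at 46.1, 33.1 and 38.2 CPM in WT and at 29.2, 34.0 and 31.4 CPM in cKO cultures. Here WT replicate 2 lay below cKO replicate 2. The call (-0.32 ± 0.12, edgeR adjusted p = 0.0473) was lost with limma-voom (adjusted p = 0.051) and without WT replicate 1, WT replicate 3, cKO replicate 1 or cKO replicate 3 (0.0581 to 0.17).

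The other tested type II cadherins had overlapping groups. Cdh20, at 90.2, 89.3 and 86.3 CPM in WT against 92.7, 91.8 and 86.1 CPM in cKO cultures, differed by 0.03 ± 0.07 (edgeR adjusted p = 0.807). Cdh8 stood at 2.97, 2.23 and 3.08 CPM in WT and at 3.14, 3.26 and 2.51 CPM in cKO cultures (0.10 ± 0.23, edgeR adjusted p = 0.775). Cdh18 stood at 1.40, 1.003 and 0.848 CPM in WT and at 1.42, 0.990 and 1.69 CPM in cKO cultures (0.34 ± 0.34, edgeR adjusted p = 0.452). Cdh7 was under 1.02 CPM in all cultures and not called, Cdh9 and Cdh12 had 0 to 5 counts per culture, and Cdh5 (VE-cadherin), the cadherin of endothelium, was at 0 in all, although another gene covers only 9.91% of it.

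Of the 5 cadherins outside the classical types, Cdh13 (T-cadherin), which is anchored in the membrane by a lipid and has no tail, stood at 122, 135 and 124 CPM in WT and at 151, 145 and 138 CPM in cKO cultures. Its groups did not overlap, but it was not called (log2 fold change 0.18 ± 0.07, edgeR adjusted p = 0.0637). With the replicate block or culture sex as a covariate it passed (0.032 and 0.0471), and with the trend with gene span removed it stood at 0.07. Cdh23, which joins Pcdh15 in the tip links of hair cells, stood at 1.85, 0.891 and 1.47 CPM in WT and at 1.23, 0.583 and 0.868 CPM in cKO cultures (-0.65 ± 0.38, edgeR adjusted p = 0.191). Cdh16, Cdh17 and Cdh26, cadherins of epithelia, had 0 to 10 counts per culture and were not tested.

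The delta-1 protocadherins held some of the clearest differences. Pcdh11x, encoded on the X chromosome, stood at 144, 113 and 105 CPM in WT and at 324, 309 and 304 CPM in cKO cultures. The lowest cKO culture was well above the highest WT culture, and the gene rose by 1.38 ± 0.10 (edgeR adjusted p = 3.67e-07). Pcdh9 stood at 376, 317 and 320 CPM in WT and at 555, 539 and 521 CPM in cKO cultures, and it rose by 0.67 ± 0.09 (edgeR adjusted p = 4.2e-05). Pcdh7 overlapped, at 144, 122 and 113 CPM in WT against 145, 143 and 136 CPM in cKO cultures (0.16 ± 0.09, edgeR adjusted p = 0.163), and passed without WT replicate 1 alone among the alternatives (0.26, adjusted p = 0.00698). Pcdh1 went the other way, from 93.6, 107 and 97.4 CPM in WT to 85.4, 86.7 and 78.1 CPM in cKO cultures. It fell by 0.25 on the log2 scale (SE 0.08, edgeR adjusted p = 0.0208), a call lost without WT replicate 2 (adjusted p = 0.0665) or cKO replicate 3 (0.14).

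Delta-2 protocadherins, of which Pcdh10, Pcdh17 and Pcdh19 are known to act on actin through the WAVE complex, divided likewise. Pcdh18 stood at 11.3, 11.1 and 12.7 CPM in WT and at 4.37, 5.36 and 3.81 CPM in cKO cultures (log2 fold change -1.38 ± 0.17, edgeR adjusted p = 2.33e-05). Pcdh8, which is known to promote removal of N-cadherin from synapses, stood at 27.0, 28.96 and 34.4 CPM in WT and at 16.7, 14.6 and 14.99 CPM in cKO cultures (-0.97 ± 0.12, edgeR adjusted p = 2.3e-05). Both fell with no overlap. Pcdh19, an X-linked epilepsy gene whose protein binds N-cadherin, stood at 71.9, 65.9 and 67.4 CPM in WT and at 93.1, 86.6 and 91.6 CPM in cKO cultures and rose (0.40 ± 0.08, edgeR adjusted p = 0.000999). Pcdh10 stood at 438.7, 476.7 and 453.0 CPM in WT and at 401.5, 414.5 and 391.8 CPM in cKO cultures. Every cKO culture was lower, but the difference was not called (-0.18 ± 0.08, edgeR adjusted p = 0.0755), while DESeq2 called it (adjusted p = 0.0425), as did the fit without WT replicate 1 (0.0262). Pcdh17 overlapped, at 405.5, 343.7 and 368.8 CPM in WT against 370.5, 403.5 and 393.5 CPM in cKO cultures (0.06 ± 0.08, edgeR adjusted p = 0.586).

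Of the remaining protocadherins, Pcdh15, a long protocadherin known from hair cells and from oligodendrocyte precursors, stood at 148, 133 and 134 CPM in WT and at 370, 340 and 336 CPM in cKO cultures. No gap among the members was wider relative to its error, and Pcdh15 rose by 1.33 ± 0.08 (edgeR adjusted p = 5.53e-08). Pcdh20 stood at 3.65, 2.17 and 2.99 CPM in WT and at 0.834, 0.757 and 1.30 CPM in cKO cultures, on 13 to 81 counts, and it fell (-1.60 ± 0.31, edgeR adjusted p = 0.0012). Pcdh12, an endothelial protocadherin, was not tested, with no count in the WT cultures and 3, 2 and 3 counts in the cKO cultures.

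**Figure D1:**
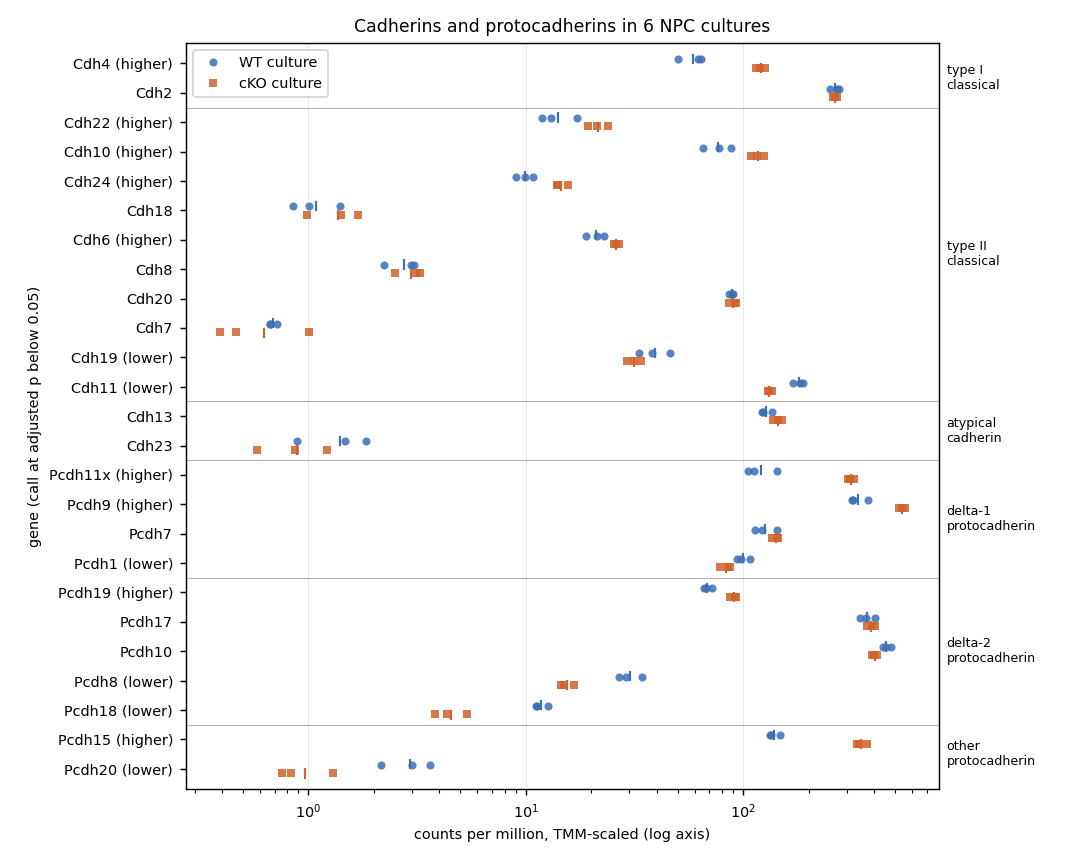
CPM of the 25 tested members in each culture on a log axis, by family, with WT cultures as circles, cKO cultures as squares and a short bar at each mean. Pcdh11x, Pcdh15 and Cdh4 show cKO cultures far to the right of WT cultures, Pcdh18, Pcdh20 and Pcdh8 far to the left, and Cdh2 and Cdh20 lie on top of each other.

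The genes that fell most were short and those that rose most were long. The 6 that fell spanned 4.54 to 154 kb (median 20.1 kb), with the 3 largest falls in genes of 4.54 kb (Pcdh8), 6.65 kb (Pcdh20) and 14.03 kb (Pcdh18). By contrast the 9 that rose spanned 9.37 to 1550 kb (median 195 kb), with Cdh4 at 457 kb, Pcdh11x at 620 kb, Pcdh9 at 877 kb and Pcdh15 at 1550 kb. Exons of GENCODE M21 fill 100% of the Pcdh8 span and 1.53% of that of Pcdh15. The rank correlation of span with log2 fold change was 0.60 over the 25 members, which share the libraries, and 0.15 over all 14432 genes, given as a description. Cdh24, at 9.37 kb, rose, so the order was not complete. The 10 members not called were long too, at 57.2 to 1041 kb (median 309 kb). Among them Cdh13 (1041 kb) and Cdh18 (925 kb) were longer than Cdh4, Pcdh11x and Pcdh9. Removing the trend with span over all genes left Pcdh15 at 1.198, Pcdh9 at 0.57, Cdh13 at 0.07, Pcdh20 at -1.52 and Pcdh18 at -1.32.

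**Figure D2:**
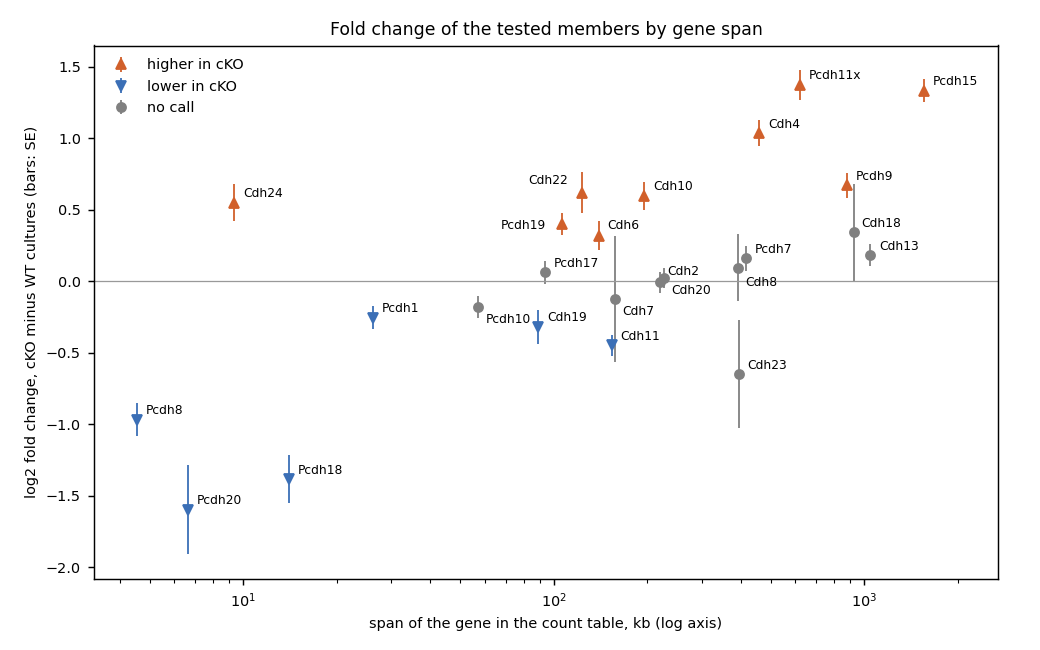
Log2 fold change of the 25 tested members, cKO minus WT cultures, with its standard error as a bar, against the span of the gene in kb on a log axis. Pcdh8, Pcdh20 and Pcdh18 lie at the lower left, Cdh4, Pcdh11x and Pcdh15 at the upper right, and Cdh24 lies apart as a short gene that rose.

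Genes that work with cadherins were taken from lists of known partners. Their counts stand beside 19.7% of all tested genes that rose and 19.8% that fell. Of 10 tested catenins 3 fell, Pkp4 (101.4 ± 4.996 to 71.0 ± 3.52 CPM, SD, n = 3 cultures each, edgeR adjusted p = 0.00015), Ctnna1 (alpha-E-catenin, 233 ± 6.97 to 169 ± 6.65 CPM, edgeR adjusted p = 0.000243) and Jup, and the other 7 were not called. Ctnnb1 (beta-catenin) stood at 878 ± 24.3 CPM in WT against 885 ± 9.35 CPM in cKO cultures (SD, n = 3, edgeR adjusted p = 0.912). Of the 5 junction linkers tested 3 rose, among them the polarity gene Pard3 (99.96 ± 0.872 to 128 ± 2.34 CPM, edgeR adjusted p = 0.000974) and Lima1 (20.5 ± 3.07 to 28.9 ± 3.58 CPM, edgeR adjusted p = 0.00712). Among 4 nectins, which seed junctions beside cadherins, only Nectin3 passed and rose (102.5 ± 11.9 to 134 ± 6.63 CPM, edgeR adjusted p = 0.00331).

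Of 6 genes for cadherin processing Pcsk6 rose and Furin fell, both narrowly (edgeR adjusted p = 0.0402 and 0.0446). Of 11 tested Fat, Dchs, Celsr and calsyntenin (Clstn) genes outside the 35, 6 fell, where 19.8% of all tested genes did. They were led by the calsyntenin Clstn2 (16.8 ± 4.83 to 4.41 ± 0.239 CPM, edgeR adjusted p = 5.4e-06) and by Celsr1, a planar polarity gene (122 ± 15.7 to 77.1 ± 12.9 CPM, edgeR adjusted p = 0.000601). Dchs1, Celsr2, Clstn1 and Clstn3 also fell, and the other 5 were not called. Of the repressors of cadherin genes only Zeb1 and Zeb2 had enough counts, and Zeb1 rose (408 ± 24.5 to 563 ± 11.1 CPM, edgeR adjusted p = 0.000412) while Zeb2 fell (310 ± 34.1 to 258 ± 10.1 CPM, edgeR adjusted p = 0.0295).

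Markers of cell types moved in the same cultures, where 19.7% of all tested genes rose and 19.8% fell. Their part in the member results was not tested. Of 9 tested neuron markers 7 fell, such as Stmn2 (15.1 to 0.152 CPM), while the summed list stood at 2090 to 2444 CPM in WT against 2207 to 2341 CPM in cKO cultures, most of it Map2. Of 7 tested astrocyte markers 5 fell and 1 rose, and the sum went from 5335 to 5511 CPM down to 3187 to 3548 CPM. In the oligodendrocyte lineage list the myelin genes Mbp and Mog fell and the precursor genes Olig1 and Pdgfra rose. Neural progenitor markers rose in 3 and fell in 3 of 7, at 4735 to 5833 CPM in WT against 5350 to 6058 CPM in cKO cultures.

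Of 5 tested GE and GABAergic markers 2 fell (sums of 62.4 to 69.4 CPM for WT, 53.5 to 59.1 CPM for cKO), and of 4 tested endothelial and mural markers 2 fell (44.0 to 51.5 and 24.1 to 34.8 CPM). Meningeal fibroblast (3.45 to 4.15 and 6.62 to 7.63 CPM) and microglia lists (0.390 to 1.11 and 1.32 to 2.39 CPM) each had 1 gene tested, which rose. Of these markers 12 were at 0 in every culture, and 5 of them, Sox2, Tubb3, Gfap, Dlx1 and Dlx6, lie within another gene, where the table holds no counts. The defining genes Cldn5, C1qa, C1qb, C1qc, Tyrobp, Kcnj8 and Nkx2-1 were at 0 without that. The first pair of WT cultures and the first cKO culture held 5903 to 9232 Y-linked counts, the other cultures 0 to 1, and with sex as a covariate the X-linked Pcdh11x and Pcdh19 stood at 1.44 and 0.42.

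In the cortex, 8214 WT and 9560 cKO cells were kept, with medians of 11705 and 11012.5 UMIs, and the libraries shared 22 barcodes. Cells were clustered without the 35 genes, and the 25 clusters were merged into 20 groups, called "-like" where fixed markers gave a name and otherwise by a leading gene. Levels are CPM of the UMIs summed in a group and library, with 95% exact Poisson intervals. With 1 embryo per genotype there is no test between genotypes, and intervals cover counting error only. Moreover the embryos differed in sex: Xist had 2 UMIs in WT and 105339 in cKO cells, and 4 Y-linked genes 22062 and 211. Genotype, sex and embryo therefore cannot be told apart, above all for Pcdh11x and Pcdh19.

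Of the 35 members, 28 had at least 100 UMIs over both libraries, and the other 7 had 1 to 59 (Cdh1, Cdh3, Cdh15, Cdh16, Cdh17, Cdh19 and Cdh26). In 19 of the 28 the group with the highest level was the same in both embryos among 18 groups, leaving out microglia-like cells, fewer than 20 in each library, and clusters mostly of called doublets. In the other 9 (Cdh2, Cdh4, Cdh6, Cdh9, Cdh10, Cdh13, Cdh18, Cdh23 and Pcdh8) another group led in the cKO embryo. An unnamed cluster of low UMI counts (medians of 1213 and 1132.5) held the highest WT level of Cdh2 (1089 CPM) and of Cdh24 (16.4 CPM). The levels below are those of the other groups, and up to the genotype ratios they are WT levels unless cKO is named. Cdh19, at 31.5 to 39.2 CPM on average in the cultures, had 5 UMIs in the WT and none in the cKO cortex, which allows up to 0.027 CPM there. Microglia-like and red blood cell-like cells, which should lack most members, give a rough view of free RNA: 63.3 and 80.2 CPM for Cdh2, 66.2 and 107 CPM for Pcdh9 and at most 46.0 CPM for the others in WT. They held other numbers of UMIs (WT medians of 18090 and 3569.5) than AP-like cells (12524), so equal CPM is not equal free RNA per cell.

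Each classical cadherin had its own pattern. Cdh2 was broad, from 340 CPM in Cajal-Retzius-like to 982 CPM (952 to 1012) in deep-layer neuron-like cells of the Hs3st4 cluster among neural groups, with 617 CPM in AP-like and 851 CPM in endothelial-like cells. Cdh4 peaked in the unnamed Tafa1 cluster (1059 CPM, 1000 to 1121) and in Cajal-Retzius-like cells (892 CPM, 830 to 956), against 168 CPM in AP-like and 60.0 CPM in deep-layer neuron-like cells of the Kctd8 cluster. Intervals of the leading pair did not overlap. Cdh5 was endothelial, at 527 CPM against 39.1 CPM in meningeal fibroblast-like and under 5 CPM in the other WT groups.

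Several type II cadherins marked stages and layers. Cdh8 ran from 52.3 CPM in AP-like to 433 CPM in IP-like (intermediate progenitor-like) and 1115 CPM (1095 to 1136) in migrating neuron-like cells of the Neurod1 cluster, then 500 CPM in the Ndst3 cluster. Cdh10 followed a similar course up to the Neurod1 cluster, at 101.1 CPM, 141 CPM and 321 CPM, with 426 CPM in the Tafa1 cluster. Cdh12 was highest in the unnamed Inhba cluster (229 CPM, 223 to 236), and in GE striatal-like cells (207 CPM, 180 to 236), intervals that overlap, and low in AP-like cells (5.17 CPM). Cdh18 reached 62.9 CPM in the Hs3st4 cluster and 62.7 CPM in Cajal-Retzius-like cells and was at most 6.25 CPM in the others.

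Cdh20 was a progenitor gene, with 57.0 CPM (53.0 to 61.3) in AP-like cells, 9.19 CPM in IP-like cells and at most 3.78 CPM in cortical neuron groups. Cdh6 stood at 71.8 CPM in AP-like, 75.5 CPM in Neurod1-cluster and 82.7 CPM in Hs3st4-cluster cells, levels whose intervals overlap between neighbours. Cdh7 led in Cajal-Retzius-like cells (82.1 CPM), Cdh9 in the Hs3st4 cluster (17.1 CPM), Cdh11 in the Hs3st4 cluster (299 CPM) and meningeal fibroblast-like cells (288 CPM), and Cdh22 in GE interneuron-like cells of the Adarb2 cluster (8.26 to 16.9 CPM, on 33 UMIs). Cdh24 was flat, between 4.45 and 15.2 CPM. Cdh13 marked deep-layer neuron-like cells, at 1618 CPM (1580 to 1658) in the Hs3st4 and 1480 CPM (1459 to 1501) in the Kctd8 cluster, and Cdh23 was at most 5.75 CPM in any WT group.

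Protocadherins had codes of their own. Pcdh9 was the most abundant member in UMIs, 3242 CPM in the Hs3st4 cluster and 2049 CPM in the Kctd8 cluster, 382 CPM in AP-like and 76.6 CPM in IP-like cells. The last lies between the levels of microglia-like and red blood cell-like cells. Pcdh7 peaked in the Neurod1 cluster (774 CPM, 757 to 791). Pcdh11x was a Cajal-Retzius gene (128 CPM, 105 to 154, against 35.4 CPM in AP-like cells), and Pcdh19 a gene of GE interneuron-like cells of the Nxph1 cluster (262 CPM, 247 to 279, against 41.2 CPM in AP-like cells). Pcdh15 shared that cluster (125 CPM, 115 to 137) with AP-like cells (104 CPM, 98.7 to 110) and was at 14.3 CPM in IP-like cells.

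Pcdh8 was highest in Ndst3-cluster neurons (58.0 CPM, 53.6 to 62.6) and close to it in Nxph1-cluster cells (51.0 CPM, 44.3 to 58.3). Pcdh10 led in GE striatal-like cells (144 CPM), Pcdh17 in endothelial-like cells (134 CPM) and Pcdh20 in the Neurod1 cluster (3.69 CPM). Outside the neural lineage, meningeal fibroblast-like cells held the most Pcdh18 (212 CPM, 181 to 247, against 16.1 CPM in AP-like cells), and endothelial-like cells the most Pcdh1 (81.4 CPM) and Pcdh12 (82.2 CPM).

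**Figure D3:**
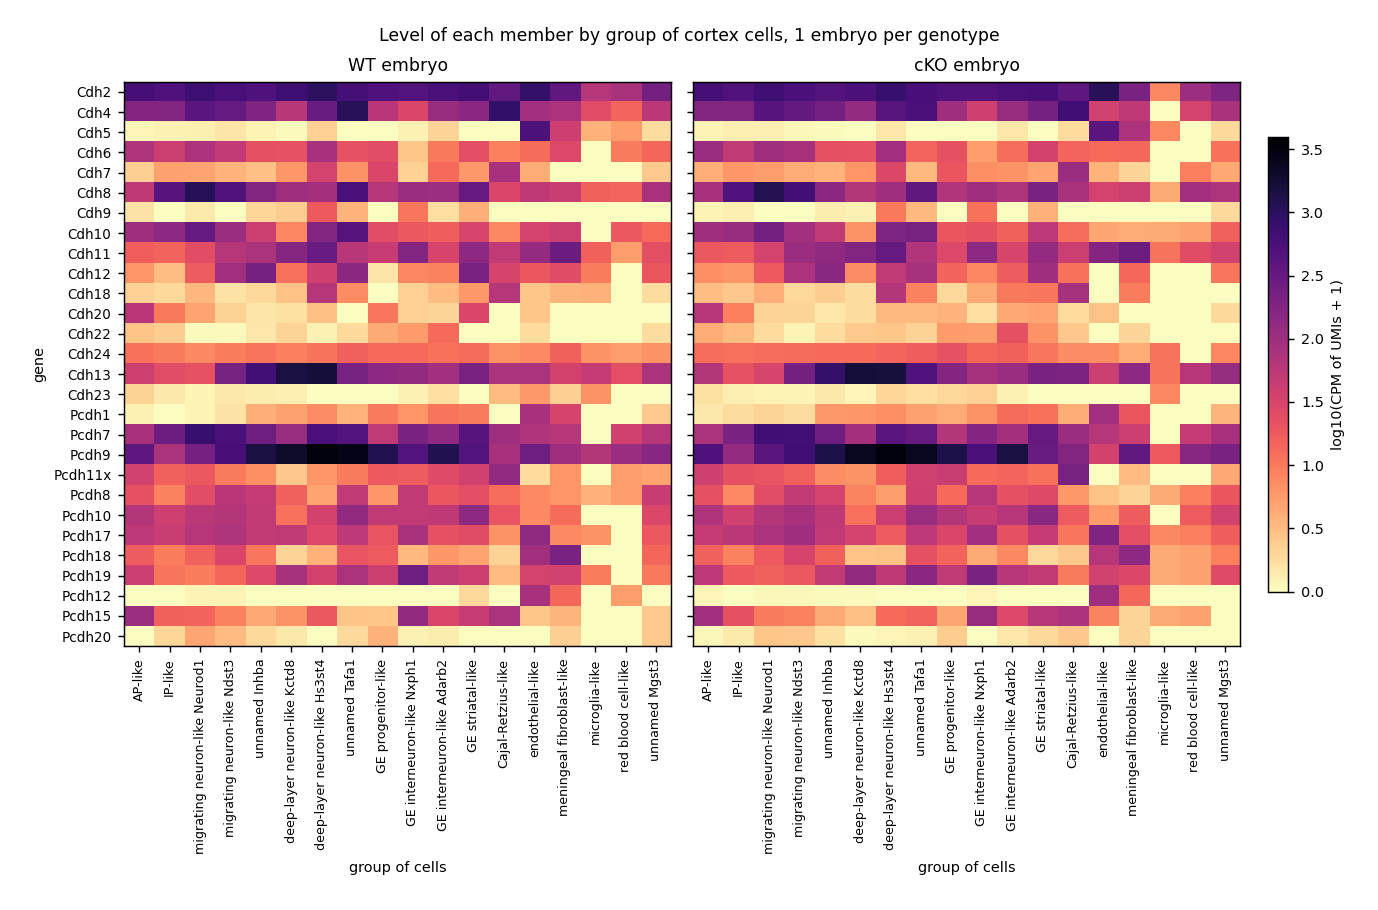
Level of the 28 members with at least 100 UMIs in 18 groups of cells of the WT (left) and the cKO embryo (right), as log10 of CPM plus 1, darker for higher. Cdh8 is darkest in the Neurod1 cluster, Cdh13 and Pcdh9 in the deep-layer clusters, Cdh5 and Pcdh12 in endothelial-like cells, and the picture is much alike in both embryos.

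In AP-like cells (959 WT and 1318 cKO, 12952710 and 19073653 UMIs), 19 members had enough UMIs for a ratio. The cKO level was the higher one in 15 and the lower one in 4, with a median log2 ratio of 0.07 against -0.00 over 11707 genes. Cdh6, Cdh8 and Cdh13 were past 1.5-fold, where 3.08% of all genes were. Cdh6 stood at 71.8 CPM in WT against 108 CPM in cKO cells (log2 ratio 0.59, 0.47 to 0.70). Cdh8 stood at 52.3 and 82.2 CPM (0.65, 0.52 to 0.78), and Pcdh9, below that limit, at 382 and 505 CPM (0.40, 0.35 to 0.45). These differences exceed counting error, which is not the error between embryos.

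Cdh13 stood at 36.8 CPM in WT against 65.1 CPM in cKO AP-like cells (0.82, 0.67 to 0.98), and this ratio was smaller without called doublets. These made up 5.84% of WT and 8.88% of cKO AP-like cells. Without them Cdh13 stood at 11.3 and 15.01 CPM (0.41, on 131 and 242 UMIs, with no interval computed). Both of those levels are under that in red blood cell-like cells, at 22.3 CPM in WT against 61.3 CPM in cKO. Without called doublets Cdh8 stood at 32.3 and 53.8 CPM (0.74), Cdh6 at 75.6 and 114 CPM (0.59) and Pcdh9 at 340 and 436 CPM (0.36). Red blood cell-like cells held 13.4 CPM of Cdh8 in WT and 94.02 CPM in cKO, at medians of 3569.5 and 3099.5 UMIs. AP-like cells had medians of 12524 and 12670.5 UMIs. CPM is a share of the UMIs of a group, so how much of the AP-like Cdh8 is free RNA cannot be read from it. Deep-layer neuron markers summed to 1123 CPM in WT against 1199 CPM in cKO AP-like cells, and to 951 and 898 CPM without called doublets. Red blood cell markers were at 89.5 and 295 CPM.

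Of the 15 members called in the cultures, Cdh19, Cdh22, Pcdh1 and Pcdh20 had too few UMIs for a ratio in AP-like cells. The others are set side by side here, though the measures are unlike. Culture values are reads over whole spans in NPCs grown in vitro. AP-like values are UMIs of cells dissected at E14.5. Pcdh15, at 1.33 in the cultures, stood at 104 CPM in WT against 91.8 CPM in cKO AP-like cells (-0.18, -0.29 to -0.08, but 0.02514 as a mean over cells), and Pcdh11x, at 1.38, at 35.4 and 37.2 CPM (0.07, -0.10 to 0.24). Cdh4, at 1.04, stood at 168 and 175 CPM (0.06, -0.02 to 0.14), and Cdh10, at 0.60, at 101.1 and 101.2 CPM (0.00, -0.10 to 0.10). The ratio of each had an upper bound well under its culture value. Pcdh8, at -0.97, stood at 20.8 and 21.3 CPM (0.04, -0.19 to 0.26), Pcdh18, at -1.38, at 16.1 and 14.8 CPM (-0.11, -0.38 to 0.15), and Cdh11, at -0.45, at 15.4 and 17.7 CPM (0.20, -0.06 to 0.46). Without called doublets Cdh11 stood at 11.3 and 9.30 CPM (-0.28, on 131 and 150 UMIs, with no interval computed). With them kept its ratio differed in sign between AP-like clusters, at -0.19 in cluster 5 and 0.89 in cluster 10. Cdh24, at 0.55, stood at 10.4 and 11.4 CPM (0.13). In contrast Pcdh9 (0.67), Pcdh19 (0.40) and Cdh6 (0.32) were higher in both materials, with 41.2 and 52.9 CPM for Pcdh19 in AP-like cells (0.36, 0.21 to 0.51). Whether cultures and embryos differ in these ratios was not tested.

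Cdh2, which did not differ in the cultures, stood at 617 CPM (604 to 631) in the WT AP-like cells and at 624 CPM (613 to 635) in the cKO AP-like cells, a log2 ratio of 0.02 (-0.03 to 0.06). In the deep-layer clusters it was lower in cKO cells, at 702 and 542 CPM in the Kctd8 cluster (-0.37) and at 982 and 796 CPM in the Hs3st4 cluster (-0.30). Over the groups with enough UMIs, the Cdh6 and Cdh24 ratios were above 0 in 8 of 8, with the whole interval above 0 in 5 and 4. That of Pcdh19 was above 0 in 11 of 12 (interval above 0 in 9, below in 1). Pcdh7 was below 0 in 12 of 16 (interval below 0 in 9, above in 1) and Cdh2 in 12 of 17 (8 and 1). These groups come from the same 2 embryos and are not repeats, and no such count was made over all genes.

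IP-like cells (676 WT and 716 cKO) had ratios of 0.79 for Pcdh19 (0.40 to 1.18, on 89 WT and 160 cKO UMIs), 0.66 for Pcdh9 (0.52 to 0.80, from 76.6 to 121 CPM, against 107 and 159 CPM in red blood cell-like cells), 0.57 for Pcdh15 (0.25 to 0.90, from 14.3 to 21.2 CPM) and 0.55 for Pcdh11x (0.23 to 0.87, from 14.9 to 21.9 CPM). All 4 are members that rose in the cultures. Over the groups with enough UMIs, Pcdh15 was above 0 in 4 of 11 only (interval above 0 in 1, below in 3). Pcdh9 was above 0 in 11 of 17 (11 and 4) and Pcdh11x in 9 of 11 (6 and 1). Pcdh7 (-0.36, -0.45 to -0.28) and Cdh10 (-0.33, -0.45 to -0.21) were lower in cKO IP-like cells, and Cdh10 was a member that rose in the cultures. In neurons, Cdh4 stood at 60.0 CPM in WT against 124 CPM in cKO cells of the Kctd8 cluster (1.04, 0.92 to 1.17), Cdh11 at 75.8 and 134 CPM in the Inhba cluster (0.82, 0.73 to 0.91), and Pcdh8 at 14.7 and 7.31 CPM in the Kctd8 cluster (-1.005, -1.38 to -0.64). The Tafa1 cluster, with 103 WT and 419 cKO cells, had Cdh4 at 1059 and 578 CPM (-0.87, -0.97 to -0.77).

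GE-like cells lie outside the Emx1 lineage and so show the difference between the embryos where no deletion is intended. Syncrip itself was lower in the cKO GE-like cells (309 and 264 CPM), and the reason was not tested. Over all GE-like cells 22 members had a ratio, 10 above and 12 below 0 (median -0.01, and 0.01 over 11086 genes). Only Cdh22 was past 1.5-fold, where 2.05% of all genes were, at 5.96 CPM in WT against 9.85 CPM in cKO cells (0.73, with a lower bound of 0.27). Cdh8 (-0.32, -0.44 to -0.20), Cdh13 (-0.15, -0.26 to -0.04) and Pcdh19 (-0.17, -0.27 to -0.06) were lower in cKO GE-like cells, opposite to AP-like cells, and Pcdh17 was higher (0.25, 0.07 to 0.42) where AP-like cells had -0.25, or -0.03 as a mean over cells. Pcdh9 was higher in GE-like cells too (813 and 950 CPM, 0.22, 0.18 to 0.27), and Pcdh7 lower (185 and 137 CPM, -0.43).

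**Figure D4:**
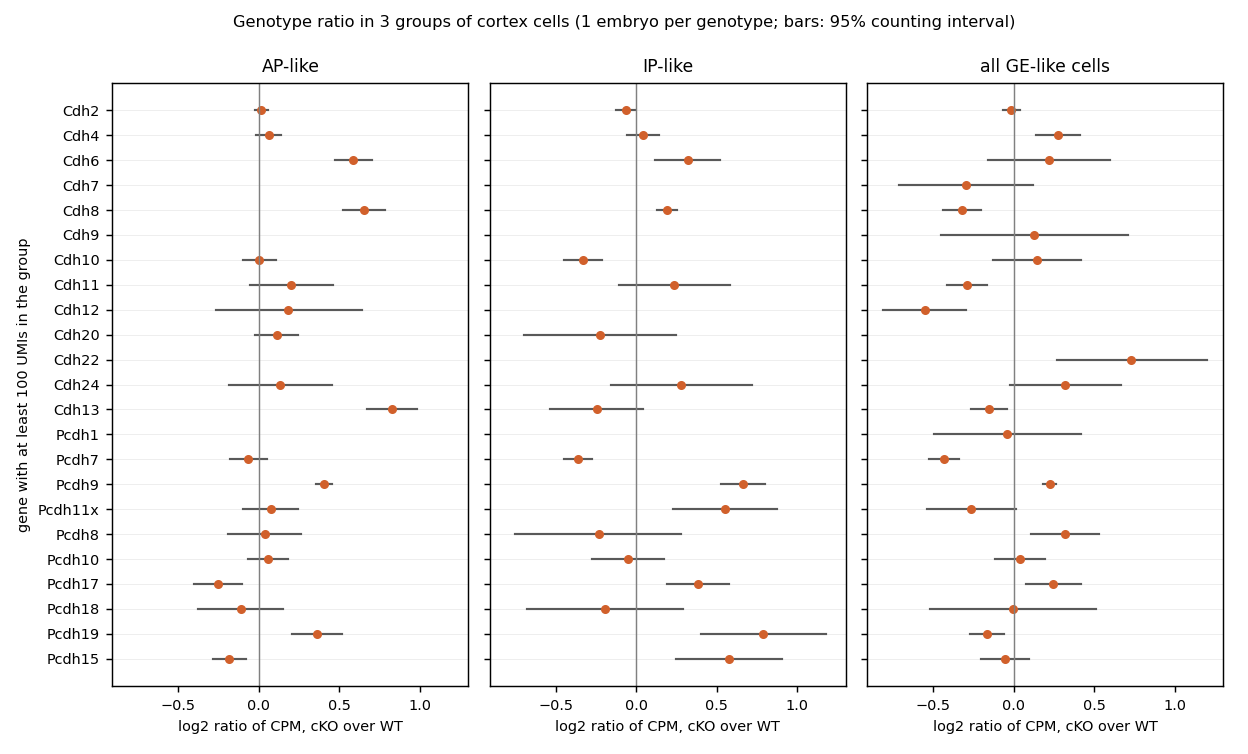
Log2 ratio of CPM, cKO over WT embryo, of each member with at least 100 UMIs in AP-like, IP-like and all GE-like cells, with 95% counting intervals as bars. Cdh6, Cdh8 and Cdh13 lie to the right in AP-like cells, Cdh8 and Cdh13 lie left of 0 in GE-like cells, and Pcdh9 lies right of 0 in all 3 panels.

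Partners of cadherins were also counted in the cortex. Of 45 partner genes 35 had a ratio in AP-like cells, 12 above and 23 below 0 (median -0.07), and no ratio was past 1.5-fold. In all GE-like cells 36 had a ratio, 18 above and 18 below 0 (median 0.00), and Dchs2 was past 1.5-fold (13.2 and 7.54 CPM, -0.81, -1.21 to -0.42). Of the partner genes with over 1000 UMIs in AP-like cells, Ctnna2 (alpha-N-catenin, 309 and 430 CPM, 0.48, 0.42 to 0.53) and Lima1 (92.9 and 74.8 CPM, -0.31, -0.42 to -0.20) were the widest apart there. Zeb1, which rose in the cultures, stood at 274 CPM in WT against 248 CPM in cKO AP-like cells (-0.15, -0.21 to -0.08), and Ctnna1, which fell there, at 144 and 137 CPM (-0.07, -0.16 to 0.01).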

How the data were processed

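The authors deposited raw read counts per gene for 6 NPC cultures: paired reads were quality filtered, aligned to mm10 with HISAT2 and counted, and no source used here names the counting program, annotation or strand setting. The deposited single-cell matrices hold raw UMI counts for 1 WT and 1 cKO embryo, written by Cell Ranger 7.0.0. Totals per culture were 16962903 to 22708400 counts, and 100172392 (WT) and 111313526 (cKO) UMIs. Every column of values was used. The members, gene lists and tests were chosen with earlier results of these data known.

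Counts were fitted in R 4.3.3 with edgeR 4.0.16 (filterByExpr, TMM, robust quasi-likelihood test, Benjamini-Hochberg adjustment over all 14432 genes tested, threshold 0.05), with no covariate. Standard errors come from the F statistic. No replicate pair agreed within sampling noise. Deviations of cultures with the same replicate number correlated at 0.30, -0.03 and 0.08, so numbers were not taken as pairs. Alternatives were RLE and upper quartile scaling, other filters, DESeq2 1.42.0, limma-voom (3.58.1), a replicate block, culture sex, the trend with span, and leaving out each culture. The procedure was tested on simulated data.

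Barcodes with 200 genes or more and a mitochondrial share up to 10% were clustered with Seurat 5.3.0 (2000 variable genes, 30 components, 20 neighbours, resolution 0.8), leaving out members, partners, sex genes, mitochondrial genes and Syncrip. A cluster took the class whose fixed markers were raised most, if at least 3 and most of its markers were raised 1.5-fold, no other class had more markers among its top 10 genes, and Scrublet called no more than 50% of it; these naming rules were set after seeing the clusters. Scrublet (scanpy 1.11.5) called 298 WT and 451 cKO cells doublets, which were kept, and clusters mostly of them were set apart. UMIs were summed per group and library. Ratios, with 95% exact conditional intervals (Clopper-Pearson), are given from 100 UMIs over both libraries. A count of 0 allows up to 3 counts. Intervals cover counting error only. Every member is accounted for: full values are given for those tested with a mean of at least 1 CPM or an adjusted p below 0.05, and of the partner lists at most 2 risen and 2 fallen genes by adjusted p, besides Ctnnb1 and, in the cortex, Ctnna2, Lima1, Zeb1 and Ctnna1, chosen after their values were seen. Afdn was not found in the count table under that symbol. Some marker values are not reported here. Start regions are from RefSeq (GRCm38.p6) and exons from GENCODE M21.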

Additional observations from a re-analysis of the deposited data

Results flagged for a closer look

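In 4 members the cKO over WT ratio had opposite signs in AP-like cells, which the Emx1-Cre lineage includes, and in GE-like cells, which it does not, with counting intervals on either side of 0. Each group is 1 embryo, so the difference was not tested. A ratio was available for 19 members in AP-like and 22 in GE-like cells. Opposite signs were not counted over all genes, so the 4 have no background share. Cdh8 had a log2 ratio of 0.65 in AP-like and -0.32 in GE-like cells. Its AP-like level in cKO (82.2 CPM) was not above that in red blood cell-like cells (94.02 CPM, and 13.4 CPM in WT). The latter held fewer UMIs per cell (cKO medians of 3099.5 against 12670.5), so free RNA cannot be read from CPM alone. Cdh13 had 0.82 and -0.15, the first of which was 0.41 without called doublets, at levels (11.3 and 15.01 CPM) under those in red blood cell-like cells (22.3 and 61.3 CPM). Pcdh17 had -0.25 in AP-like and 0.25 in GE-like cells. As a mean over cells its AP-like ratio was -0.03, and the ratio differed between AP-like clusters, at 0.08 in cluster 5 and -0.51 in cluster 10, led by the division genes Cenpf and Aurkb. Pcdh19 had 0.36 in AP-like and -0.17 in GE-like cells, and lies on the X chromosome, of which the embryos carry different numbers.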

How the results depend on the processing

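Under the 8 alternatives of scaling, filter, tool and covariate, 9 to 10 members were higher and 5 to 7 lower in cKO cultures, and leaving out each culture in turn gave 8 to 11 and 4 to 6. The replicate block gave 10 higher and 6 lower. It added the call of Cdh13 and changed no other call. Of 350 recomputed fold changes with a test, 334 kept their side of the threshold, 11 lost the call and 5 gained it. With the trend of span removed, which has no test, 22 of 25 moved by less than 1 SE. Cdh2, Cdh7, Cdh8, Cdh20 and Pcdh17, none of them called, changed sign in 9 values. The cause was not tested. In the cortex, 464 of 514 recomputed ratios of 99 stayed within their counting interval and the others did not. The sign changed in 22, of which 20 belong to ratios whose interval holds 0 and 2 to ratios whose interval leaves out 0. These were Pcdh15 in AP-like cells, at 0.02514 as a mean over cells, and Cdh12 in deep-layer neuron-like cells, at -0.36 with resolution 0.4. AP-like ratios without AP-like cluster 13 (median of 2781 UMIs), an alternative chosen after seeing the data, all stayed within their counting intervals. With called doublets removed, Cdh11 in AP-like cells was at -0.28. Depth limits members under about 100 UMIs, and 1 embryo per genotype limits all cortex ratios.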
